A study of Mus musculus with 6 samples.

Results

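The genes described here are the G1 control genes of the D-type cyclin pathway: the D-type cyclins Ccnd1, Ccnd2 and Ccnd3, their catalytic partners Cdk4 and Cdk6, and the cyclin-dependent kinase (CDK) inhibitors Cdkn1a, Cdkn1b, Cdkn2a, Cdkn2c and Cdkn2d. They were taken by name from the deposited counts, where all 10 were found among 54087 gene rows, and all 10 had enough counts to be tested. RNA was sequenced from male C57BL/6 germ cells at 10 days post partum, sorted as bright and medium for an Id4-GFP reporter, a population the labels equate roughly with spermatogonial stem cells. The groups were 3 libraries of Dnmt3A WT/WT and 3 of Dnmt3A KO/KO cells, and every library carried the same reporter gate. Whether the numbered samples came from different animals is not said in the labels, so the p-values reflect only how far these samples spread, which may be technical. The labels name no Cre line or promoter behind the KO/KO allele.

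D-type cyclins bind CDK4 or CDK6 in early G1, and the resulting kinases phosphorylate the retinoblastoma protein, which frees E2F factors to switch on the genes of DNA synthesis. INK4 inhibitors (Cdkn2a, Cdkn2c, Cdkn2d) bind CDK4 and CDK6 themselves, whereas CIP/KIP inhibitors (Cdkn1a, Cdkn1b) bind cyclin-CDK complexes and restrain mainly CDK2. In the testis, Ccnd2 is known as a cyclin of spermatogonia, and loss of Cdkn2c and Cdkn2d is known to disturb male germ cell division.

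Gene counts summed to between 42681201 and 61749155 per library, with KO/KO replicate 3 the deepest. Dnmt3a transcripts were lower in every KO/KO library, between 90.2 and 104 CPM (read counts scaled to library size with TMM factors) against 188 to 215 CPM in WT/WT (log2 fold change -1.02, edgeR adjusted p = 0.000222), and the labels do not say which part of the gene the KO/KO allele lacks. Germ cell genes were abundant throughout, with the summed level of Ddx4, Dazl, Mael and Tex101 between 918 and 1043 CPM. Sertoli cell markers were present in every library, at a summed 406 to 626 CPM in WT/WT and 443 to 614 CPM in KO/KO over 8 genes. Of these 8 markers 1 was called, Rhox5, which was higher, at 0.368 to 1.05 CPM in WT/WT and 20.6 to 28.8 CPM in KO/KO (log2 fold change 4.84, edgeR adjusted p = 8.44e-05). Of the 7 markers of differentiating spermatogonia, 6 were lower and 1, Prdm9, was higher in KO/KO (edgeR adjusted p under 0.05), and of the 9 markers of undifferentiated spermatogonia 5 were higher and 2, Zbtb16 and Sall4, lower. Beside these counts and the 1 of 8 Sertoli cell markers, the same test called 8.33% of all tested genes higher and 6.42% lower. The Sall4 call (adjusted p = 0.0485) held in 6 of 14 alternative fits. The call of Stra8, lower, held in 9 of the 14 and that of Nanos2, higher, in 10. In such bulk libraries fewer cells of a type and less RNA per cell cannot be told apart.

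Within this gene set the kinases were lower and 1 cyclin was higher in KO/KO, and no inhibitor passed the test. Cdk6 stood at about a 3.03-fold lower mean level and Cdk4 at a 1.43-fold lower mean level, and Ccnd3 at a 1.56-fold higher one. The calls of Cdk6 and Ccnd3 held in all 14 alternative fits, that of Cdk4 in only 10. Of the 10 genes, 1 was higher and 2 were lower (edgeR's quasi-likelihood test, with Benjamini-Hochberg adjustment over 21314 genes and a threshold of 0.05), where the same test called 8.33% of all tested genes higher, 6.42% lower and 14.8% in either direction. The same 3 genes had genotypes that did not overlap in CPM, 1 higher and 2 lower, against 18.2% of tested genes higher, 17.5% lower and 35.8% in either direction. The median log2 fold change was -0.02 over the 10 genes and 0.00 over all tested genes.

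**Figure D1:**
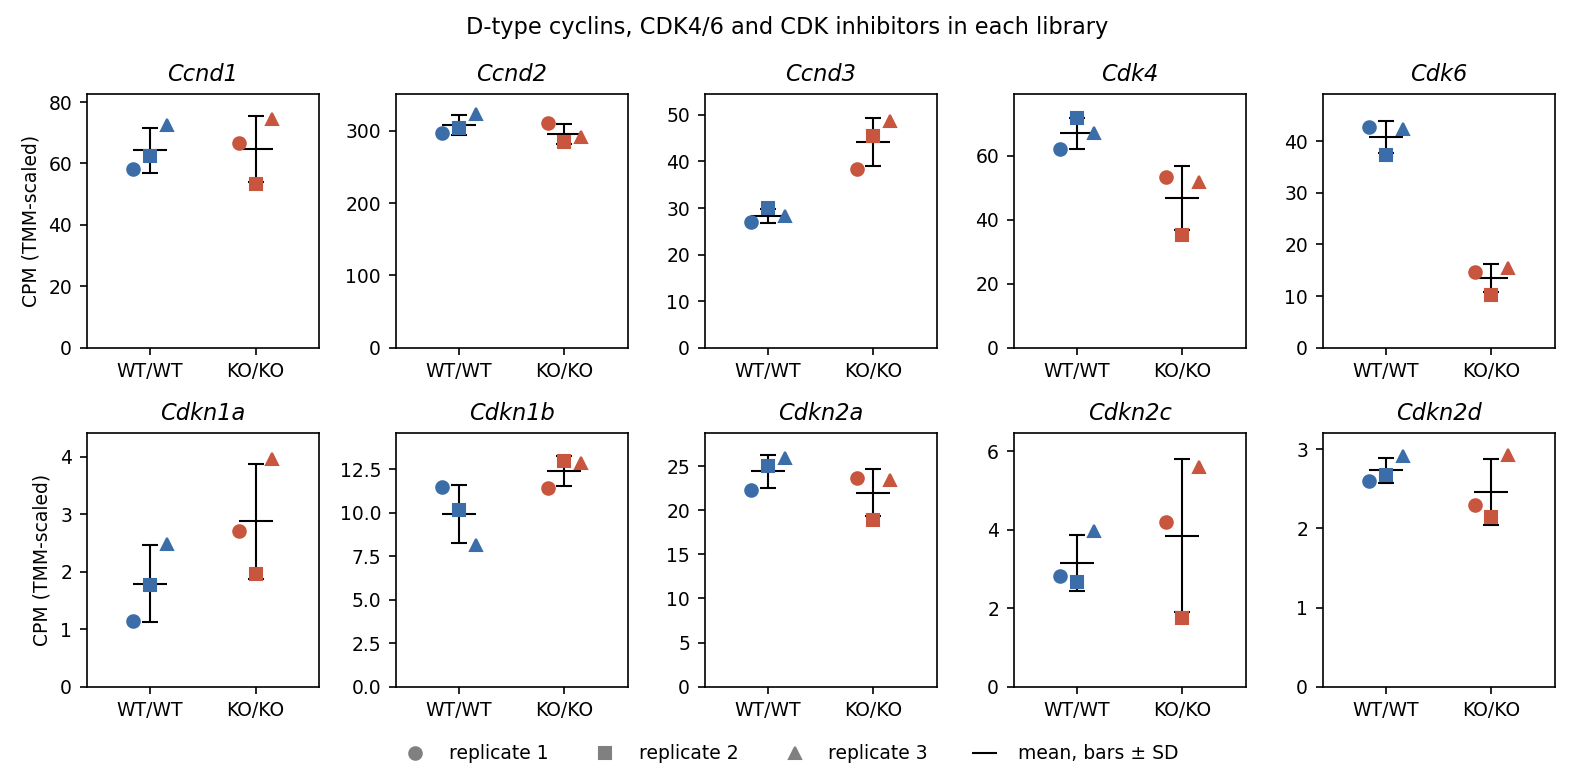
Level of each gene in each library, in CPM on axes that start at 0; marker shapes give the replicate number, horizontal bars the mean and whiskers the SD of 3 libraries. The KO/KO points of Cdk6 and Cdk4 lie below all WT/WT points and those of Ccnd3 above them, and the genotypes overlap for the other 7 genes.

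The starts of Cdk4 and Cdk6 are shown because both kinases were lower. Each sequence is the RefSeq window of 300 bases around the annotated start (GRCm38.p6, plus strand, 5′ to 3′), and capitals mark the E-box CACGTG, the letters that MYC-MAX dimers are known to bind; the palindrome reads alike on both strands and is counted once.
Cdk4, chr10:127063285-127063584: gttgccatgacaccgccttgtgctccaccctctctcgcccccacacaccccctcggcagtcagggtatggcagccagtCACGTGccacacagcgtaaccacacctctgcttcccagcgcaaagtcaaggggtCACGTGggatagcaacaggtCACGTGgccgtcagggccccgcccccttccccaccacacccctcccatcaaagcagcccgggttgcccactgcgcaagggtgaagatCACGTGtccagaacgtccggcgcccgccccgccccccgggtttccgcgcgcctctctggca
Cdk6, chr5:3343643-3343942: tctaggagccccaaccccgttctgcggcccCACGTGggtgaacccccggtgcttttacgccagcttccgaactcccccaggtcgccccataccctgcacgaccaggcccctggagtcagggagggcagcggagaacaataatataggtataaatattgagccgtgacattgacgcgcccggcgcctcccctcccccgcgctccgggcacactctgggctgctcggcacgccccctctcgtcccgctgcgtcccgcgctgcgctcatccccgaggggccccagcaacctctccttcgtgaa
The Cdk4 window holds 4 copies of CACGTG and the Cdk6 window 1. At least 1 copy occurs in 7.15% of all 32851 RefSeq windows and 4 or more in 0.0244%, which is 8 windows. The cut of 4 was taken from the Cdk4 window, so that share is no test. CACGTG itself holds a CpG, and the shares are over all windows, not over windows of like CpG count. RefSeq windows were matched for 8 of the 10 genes, 12 windows in all, and the only other copy lies in 1 of 2 windows of Cdkn2c. None of the 12 windows holds TTTCGCGC or TTTGGCGC, versions of the E2F site searched on both strands, which 0.813% of all windows hold. A match is a description of letters and shows no binding here. CpG, the dinucleotide that DNA methyltransferases act on, occurs 22 times in the Cdk4 window, 27 times in that of Cdk6 and 15 and 28 times in those of Ccnd3, against a median of 7 over all windows. In genes that were not called the counts spread more widely, on both sides of these. They were 30 in the window of Cdkn1b, 22 in that of Cdkn2d and 8 and 33 in those of Cdkn2c. The windows of Cdkn1a held 2 and 23, and those of Cdkn2a 12 and 45. Methylation itself was not measured in these libraries.

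The catalytic partners carried the largest difference of the set. Cdk6 (chromosome 5, 3341485 to 3531008, plus strand, GRCm38) encodes the kinase best known from blood progenitors. For Cdk6 the WT/WT libraries gave 42.8, 37.2 and 42.4 CPM and the KO/KO libraries 14.7, 10.3 and 15.4 CPM, in the order of replicates 1, 2 and 3 here and in what follows. Every KO/KO library was thus below every WT/WT library, with KO/KO replicate 2 lowest. The log2 fold change was -1.60 (SE 0.16, n = 3 per genotype, 95% interval -1.95 to -1.25, edgeR adjusted p = 0.000413), and 361 of the tested genes had a lower one. Cdk6 was called lower in all 14 alternative fits, with log2 fold changes from -1.69 to -1.43 when 1 library was left out.

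Markers of differentiating spermatogonia were, in sum, also lower in KO/KO. Summed over the 7 genes they reached 336, 328 and 415 CPM in the WT/WT libraries but 197, 89.6 and 103 CPM in those of KO/KO, so KO/KO replicate 1 held the most of the 3 KO/KO libraries. Kit, the receptor that marks these cells, was at 38.6 CPM in KO/KO replicate 1 and at 5.63 and 8.44 CPM in replicates 2 and 3. The Cdk6 level of KO/KO replicate 1 lay between those of the other KO/KO libraries, and without that library the log2 fold change of Cdk6 was -1.66. The same lower sum of these markers, of which Prdm9 alone was higher, stands beside the fall of Cdk4 and the rise of Ccnd3, described next. For Cdk4 and Ccnd3, KO/KO replicate 1 was the KO/KO library nearest to WT/WT. Cdk4 was at 53.3 CPM there, against 35.3 and 51.7 CPM in replicates 2 and 3. Ccnd3 was at 38.4 CPM there, against 45.4 and 48.7 CPM. The part of these cells in the 3 differences was not tested. An antisense gene, Gm17590, lies over 2.63% of the exon bases of Cdk6. Which strand the counting used is not stated, so reads of a gene and of its antisense partner may not have been kept apart.

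Cdk4 (chromosome 10, 127063534 to 127067920, plus strand), the more widely used partner of the D-type cyclins, was lower by less. For Cdk4 the WT/WT libraries gave 62.1, 71.6 and 67.1 CPM and the KO/KO libraries 53.3, 35.3 and 51.7 CPM. The genotypes did not overlap, and KO/KO replicate 2 again was lowest. The log2 fold change was -0.52 (SE 0.15, 95% interval -0.85 to -0.19, edgeR adjusted p = 0.0443). Cdk4 was called lower in 10 of the 14 alternative fits. The call did not hold without WT/WT replicate 1 (adjusted p = 0.0814), replicate 2 (adjusted p = 0.164) or replicate 3 (adjusted p = 0.124), over a range of 0.033 to 0.164 with 1 library left out, and without KO/KO replicate 2 the log2 fold change was -0.35. Exons of Tspan31 on the opposite strand cover 19.7% of the Cdk4 exon bases. Tspan31 stood at 10.1 to 11.1 CPM in WT/WT and 11.6 to 12.8 CPM in KO/KO.

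The balance between the kinases does not depend on library scaling. Per kilobase of annotated exon, Cdk4 was 6.25, 8.29 and 6.82 times as high as Cdk6 in WT/WT and 15.6, 14.8 and 14.4 times as high in KO/KO. The size of these ratios does depend on the annotated exon lengths. In CPM, not divided by length, they were 1.45 to 1.92 in WT/WT and 3.35 to 3.63 in KO/KO. Cdk6 made up 12.5% ± 1.54 of the length-scaled sum of the kinases in WT/WT and 6.28% ± 0.238 in KO/KO (SD, n = 3 each). The KO/KO ratios lay close together although the level of Cdk4 itself differed between these libraries.

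The D-type cyclins differed from each other. Ccnd3 (chromosome 17, 47505051 to 47599691, plus strand), a D-type cyclin prominent in lymphoid cells, rose. For Ccnd3 the WT/WT libraries gave 26.9, 29.9 and 28.2 CPM and the KO/KO libraries 38.4, 45.4 and 48.7 CPM. All KO/KO libraries were above all WT/WT libraries, and KO/KO replicate 1 was nearest to them. Its log2 fold change was 0.64 (SE 0.11, 95% interval 0.39 to 0.89, edgeR adjusted p = 0.00569). Ccnd3 was called higher in all 14 alternative fits, and its value ranged from 0.58 to 0.74 with 1 library left out. Bysl, on the opposite strand over 4.11% of the Ccnd3 exon bases, had a log2 fold change of -0.43 (edgeR adjusted p = 0.0513).

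Some endothelial markers, like Ccnd3, were called higher in KO/KO, as were 8.33% of all tested genes. Of 7 listed and 6 tested, 4 were higher (Cdh5, Kdr, Flt1 and Vwf), and the summed level of all 7 was 33.7 to 40.2 CPM in WT/WT and 119 to 159 CPM in KO/KO, with Pecam1 between 2.7 and 5.23 CPM, Tek between 2.29 and 3.39 CPM and Emcn at or below 0.137 CPM in every library. Of the macrophage and leukocyte markers, Cd68 was higher, whereas Ptprc, which marks all leukocytes, did not exceed 0.417 CPM in any library, and Adgre1 was at 0 in every library but WT/WT replicate 3. Whether the higher genes came from endothelial cells was not tested, nor was any part of such cells in the rise of Ccnd3.

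Ccnd2 (chromosome 6, 127125162 to 127152193, minus strand) had the highest level per kilobase of the D-type cyclins. For Ccnd2 the WT/WT libraries gave 297, 303 and 323 CPM and the KO/KO libraries 311, 285 and 291 CPM, and the genotypes overlapped. The log2 fold change was -0.059 (95% interval -0.22 to 0.10, edgeR adjusted p = 0.638), the narrowest interval of the 10 genes.

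Ccnd1 (chromosome 7, 144929931 to 144939925, minus strand) is the D-type cyclin typically induced by growth factors. For Ccnd1 the WT/WT libraries gave 58.2, 62.3 and 72.4 CPM and the KO/KO libraries 66.7, 53.1 and 74.4 CPM. Its libraries overlapped widely, with a log2 fold change of 0.010 (95% interval -0.29 to 0.31, edgeR adjusted p = 0.970). Exons of the gene listed as LTO1 in the annotation lie over 23.4% of its exon bases on the opposite strand.

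The D-type cyclin pool was dominated by Ccnd2 in both genotypes. Of the length-scaled sum of the 3 cyclins, Ccnd2 held 66.0% ± 1.14 in WT/WT and 62.7% ± 3.03 in KO/KO, and Ccnd1 held 27.5% ± 1.42 and 27.3% ± 3.02. The share of Ccnd3 was 6.52% ± 0.457 in WT/WT and 10.1% ± 1.38 in KO/KO (SD, n = 3 each). The summed level of the 3 cyclins was 382 to 424 CPM in WT/WT and 383 to 416 CPM in KO/KO, so the sums overlapped while the share of Ccnd3 differed.

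**Figure D2:**
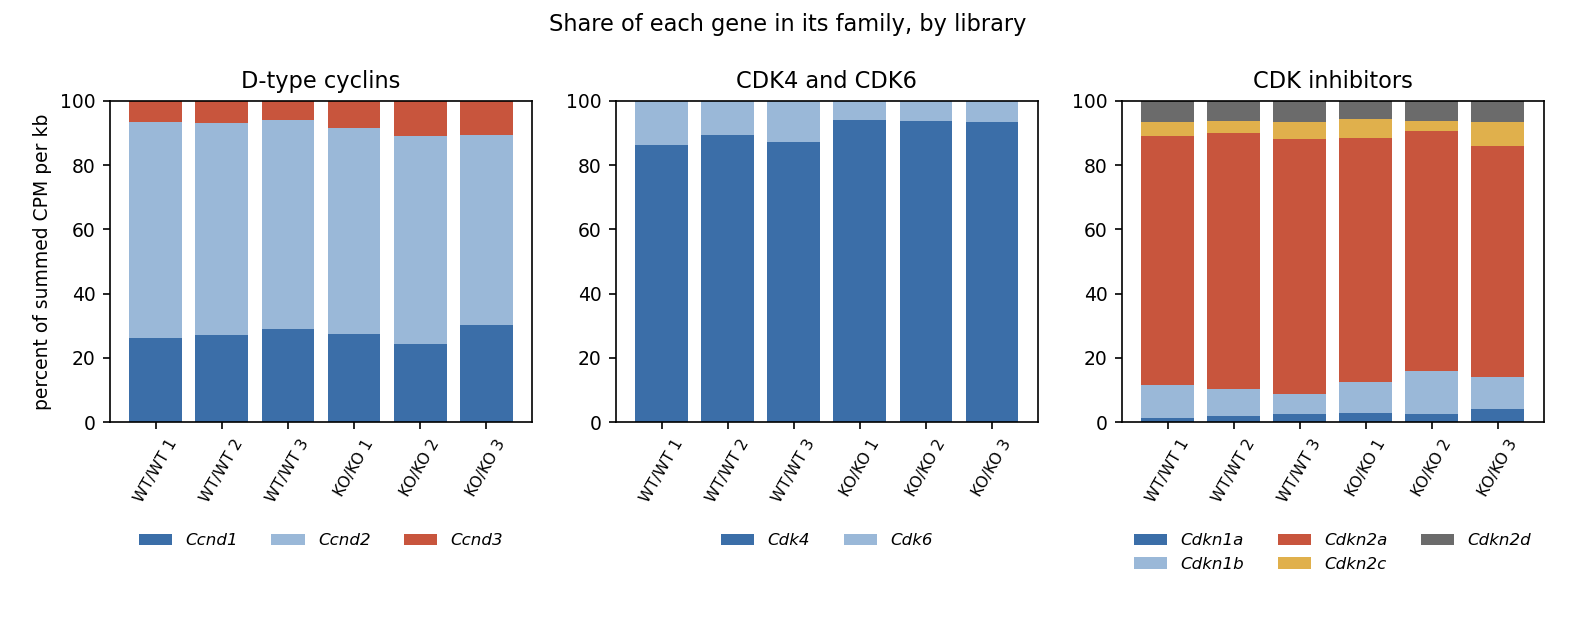
Percent of the length-scaled level (CPM per kilobase of exon) that each gene held in its family, in each library. The Ccnd3 segment is wider and the Cdk6 segment narrower in all 3 KO/KO bars than in the WT/WT bars.

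None of the 5 inhibitors passed edgeR's test, none had an unadjusted p under 0.05, and neither DESeq2 nor limma-voom called any of them. Over all 21314 tested genes edgeR called 14.8%, and 6284 had an unadjusted p under 0.05. With so few inhibitors, whether they differ from that share was not tested. Cdkn1b (chromosome 6, 134920401 to 134925513, plus strand) encodes p27, a brake on CDK2 that is also abundant in Sertoli cells. For Cdkn1b the WT/WT libraries gave 11.5, 10.2 and 8.14 CPM and the KO/KO libraries 11.4, 13 and 12.8 CPM. KO/KO replicate 1 fell inside the WT/WT range and the other KO/KO libraries above it. Its log2 fold change was 0.32 (95% interval -0.033 to 0.68, edgeR adjusted p = 0.210).

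Cdkn1a (chromosome 17, 29090976 to 29100727, plus strand) encodes p21, the inhibitor induced by p53. It had the lowest level per kilobase of the set. For Cdkn1a the WT/WT libraries gave 1.14, 1.77 and 2.48 CPM and the KO/KO libraries 2.7, 1.97 and 3.95 CPM, from between 50 and 255 counts per library. The genotypes overlapped through KO/KO replicate 2, and the log2 fold change was 0.69 with a wide interval (95% interval -0.089 to 1.46, edgeR adjusted p = 0.222).

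Among the INK4 genes, Cdkn2a (chromosome 4, 89274471 to 89294653, minus strand) had the highest level per kilobase. It encodes p16 from 1 start and, from an upstream start in another reading frame, p19ARF, which stabilises p53. The counts cover the whole gene, so its 2 annotated transcripts cannot be told apart here. For Cdkn2a the WT/WT libraries gave 22.3, 25 and 25.9 CPM and the KO/KO libraries 23.6, 18.9 and 23.5 CPM, with overlapping genotypes and a log2 fold change of -0.15 (95% interval -0.43 to 0.13, edgeR adjusted p = 0.473). The upstream start window holds 45 CpG, more than 98.1% of all windows have, and the downstream window 12.

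Cdkn2c (chromosome 4, 109660876 to 109667189, minus strand), which encodes p18, varied most within KO/KO relative to its mean. For Cdkn2c the WT/WT libraries gave 2.83, 2.66 and 3.97 CPM and the KO/KO libraries 4.2, 1.74 and 5.60 CPM. KO/KO replicate 2 was thus the lowest and replicate 3 the highest of all libraries, and the log2 fold change was 0.29 (95% interval -0.54 to 1.13, edgeR adjusted p = 0.652). Without KO/KO replicate 3 it was -0.076, and without KO/KO replicate 2 it was 0.64, with adjusted p from 0.118 to 0.918 over the fits that leave out 1 library.

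Cdkn2d (chromosome 9, 21288410 to 21291407, minus strand) encodes p19INK4D. For Cdkn2d the WT/WT libraries gave 2.60, 2.68 and 2.92 CPM and the KO/KO libraries 2.30, 2.15 and 2.93 CPM. The genotypes overlapped, with a log2 fold change of -0.15 (95% interval -0.64 to 0.35, edgeR adjusted p = 0.705).

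**Figure D3:**
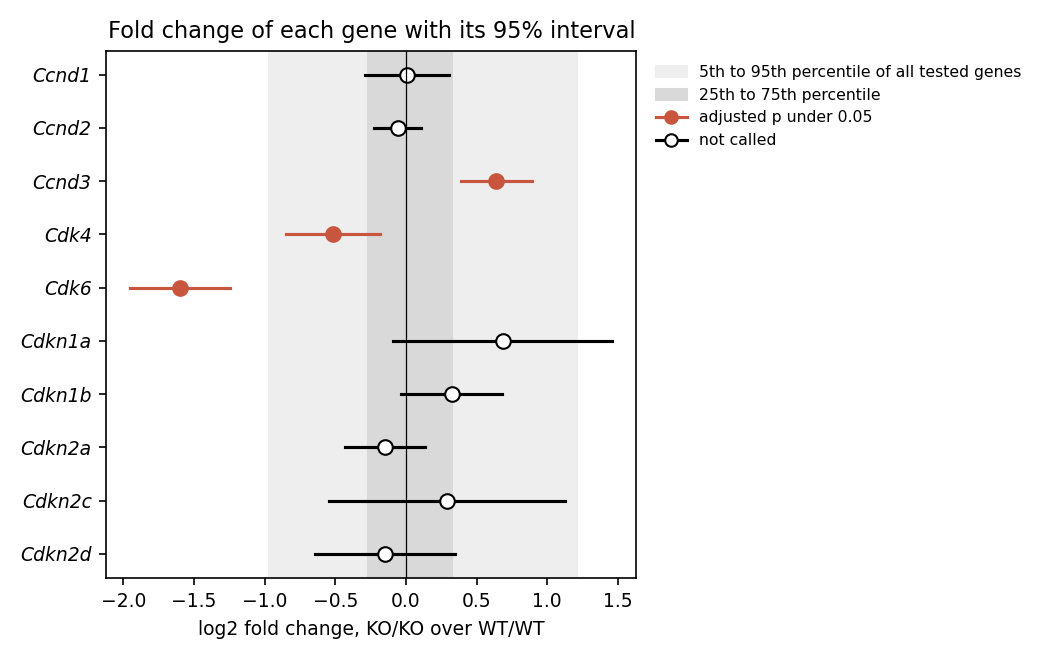
Log2 fold change of each gene, KO/KO over WT/WT, with its 95% interval; filled red points passed the test and grey bands give percentiles of all tested genes. Cdk6 at -1.60 lies outside the 5th to 95th percentile band of -0.97 to 1.21, and the intervals of the 7 uncalled genes include 0.

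Compared per kilobase of exon, the genes spanned a wide range in WT/WT. Ccnd2 was highest at 32.7 CPM per kb, followed by Cdkn2a at 20.8 and Cdk4 at 20.6 CPM per kb, whose libraries overlapped, and Ccnd1 at 13.7 CPM per kb. Ccnd3 at 3.23 and Cdk6 at 2.92 CPM per kb came next, with ranges that only just failed to overlap (lowest Ccnd3 library 3.07, highest Cdk6 library 3.06 CPM per kb). Cdkn1b at 2.18 and Cdkn2d at 1.74 CPM per kb overlapped, and Cdkn2c at 1.17 and Cdkn1a at 0.505 CPM per kb were lowest.

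In KO/KO the order changed around the kinases. Cdk6 was ninth of the 10 genes at 0.962 CPM per kb, where its libraries overlapped those of Cdkn2c at 1.43 and Cdkn1a at 0.809 CPM per kb. Ccnd3 was at 5.03 CPM per kb, above every library of Cdkn1b at 2.72 CPM per kb. Cdk4 at 14.4 CPM per kb now overlapped Ccnd1 at 13.8 CPM per kb. These levels divide by all annotated exon bases, 13989 for Cdk6 and 1172 for Cdkn2a, of which 978 and 694 are coding, so transcripts that use only part of a long untranslated region would be understated.

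**Figure D4:**
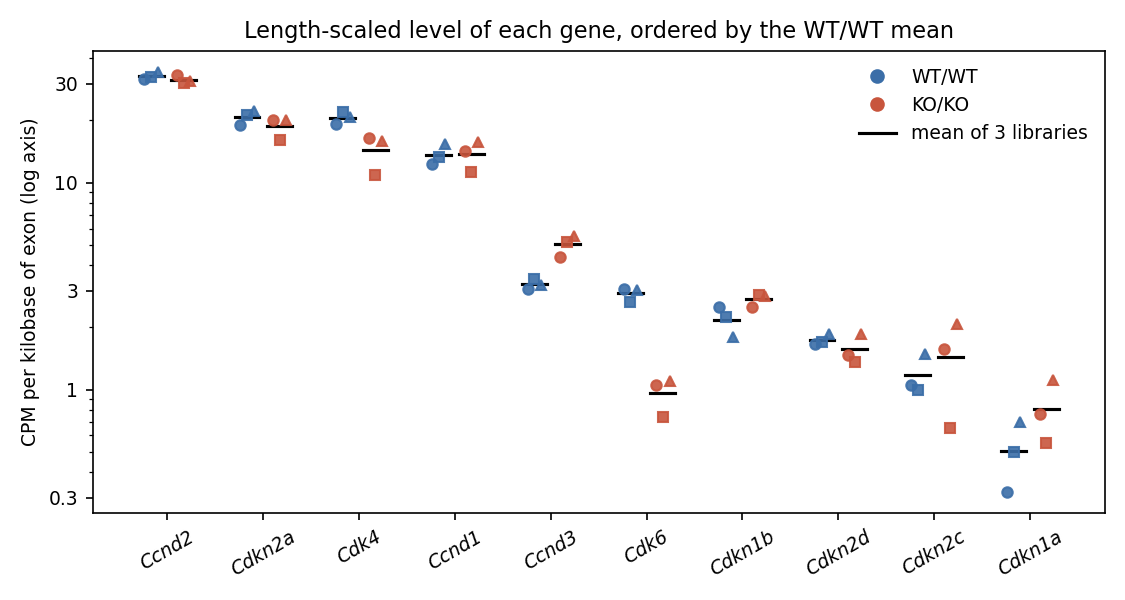
Level of each gene per kilobase of exon in each library, on a log axis, ordered by the WT/WT mean; lines are means of 3 libraries. Cdk6 drops from the level of Ccnd3, about 3 CPM per kb, to the level of the least abundant inhibitors, about 1 CPM per kb, in KO/KO.

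Within KO/KO, replicate 2 was the lowest library for 8 of the 10 genes, the exceptions being Ccnd3 and Cdkn1b, which were lowest in replicate 1. Among all tested genes 34.6% were lowest in replicate 2. The 18 replication genes described next were all lowest in that library, at a summed 1486 CPM against 2057 and 2020 CPM in KO/KO replicates 1 and 3. This is a difference between samples of 1 genotype, and its part in the lower Cdk4 level was not tested.

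Around these genes, 64 others of the G1/S pathway were examined, all of them tested. Of these, 1 was higher and 4 were lower, with a median log2 fold change of -0.06, and 16 had an unadjusted p under 0.05, as had 6284 of all 21314 tested genes. Beside the 14.8% of all tested genes that were called, 5 of 64 is fewer, and the difference was not tested.

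Mycl, 1 of the 3 MYC genes, had the largest fold change among the 12 upstream regulators. For Mycl the WT/WT libraries gave 14.7, 13.6 and 12.4 CPM and the KO/KO libraries 3.69, 1.54 and 1.94 CPM. The genotypes did not overlap, and the log2 fold change was -2.51 (SE 0.29, edgeR adjusted p = 0.000846). Mycn, the member known for germ cell growth, fell from 49.8, 46.9 and 58.7 CPM in WT/WT to 36.9, 24.8 and 33.9 CPM (log2 fold change -0.70, edgeR adjusted p = 0.0146), a call lost without WT/WT replicate 3 (adjusted p = 0.0692). Max, the partner of all 3, rose from 33.5 to 35.0 CPM in WT/WT to 39.9 to 51.8 CPM in KO/KO (log2 fold change 0.45, edgeR adjusted p = 0.0280). Myc itself was at or below 0.799 CPM in every library. The call of Max was lost without any 1 WT/WT library (adjusted p = 0.0872, 0.130 and 0.0926) or KO/KO replicate 3 (adjusted p = 0.0601).

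Foxo1, a transcription factor that activates Cdkn1b and is restrained by AKT, also fell, from 144 to 161 CPM in WT/WT to 89.6 to 124 CPM in KO/KO (log2 fold change -0.48, edgeR adjusted p = 0.0211). Its call was lost without any 1 WT/WT library (adjusted p = 0.0829, 0.0729 and 0.0563). In all, 3 of the 12 upstream regulators fell and 1 rose, where 6.42% of all tested genes were called lower and 8.33% higher.

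Downstream of the D-type cyclins 1 gene passed. Of 10 E2F and DP factors 1, the activator E2f3, fell, from 45.2, 44.5 and 52.0 CPM to 38.9, 33.7 and 34.0 CPM (log2 fold change -0.41, edgeR adjusted p = 0.0294). That call was lost without any 1 WT/WT library (adjusted p = 0.0724, 0.0809 and 0.131) and without KO/KO replicate 2 (adjusted p = 0.0576) or 3 (adjusted p = 0.0696). Among 5 pocket proteins and further inhibitors none passed edgeR's test, with none at an unadjusted p under 0.05 and none called by DESeq2 or limma-voom. Of all 21314 tested genes 14.8% passed edgeR's test and 6284 had such an unadjusted p. Cdkn2b, the INK4 gene beside Cdkn2a, had the smallest p of these (log2 fold change 0.59, edgeR adjusted p = 0.173).

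Of the 9 genes of the cyclin E, cyclin A and CDK2 engine none passed edgeR's test, and DESeq2 and limma-voom called none. An unadjusted p under 0.05 was found for 3 of them and for 6284 of all 21314 tested genes. With no filter on low counts edgeR called 3 of the 9 lower, against 1914 of 36553 genes. Ccne2, a cyclin of the G1/S transition, had the smallest p, with WT/WT values of 17.6, 19.9 and 25.5 CPM and KO/KO values of 17.6, 14.2 and 14.9 CPM (log2 fold change -0.43, edgeR adjusted p = 0.0981). Of 10 genes that degrade D-type cyclins or p27 none passed edgeR's test either, 2 had an unadjusted p under 0.05, and the other tools called none. Gsk3b, the kinase that marks D-type cyclins for destruction, had the smallest p of that list (log2 fold change 0.21, edgeR adjusted p = 0.108).

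Of 18 E2F targets and replication genes none passed edgeR's test, and 4 had an unadjusted p under 0.05. Such a p was found for 6284 of all 21314 tested genes. With no filter on low counts edgeR called 4 of the 18 lower and 1 higher, against 1914 and 2575 of 36553 genes. DESeq2 and limma-voom called 2 each. Over all genes those tools called 3705 and 3023. The log2 fold change was negative for 14 of them, with a median of -0.09. Without KO/KO replicate 2, 2 of the 18 were called higher and none lower, and without KO/KO replicate 1, 2 were called lower. Orc1, a subunit of the origin recognition complex, had the smallest p, with WT/WT values of 34.9, 39.9 and 44.3 CPM and KO/KO values of 34.1, 24.9 and 27.4 CPM (log2 fold change -0.46, edgeR adjusted p = 0.0535).

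**Figure D5:**
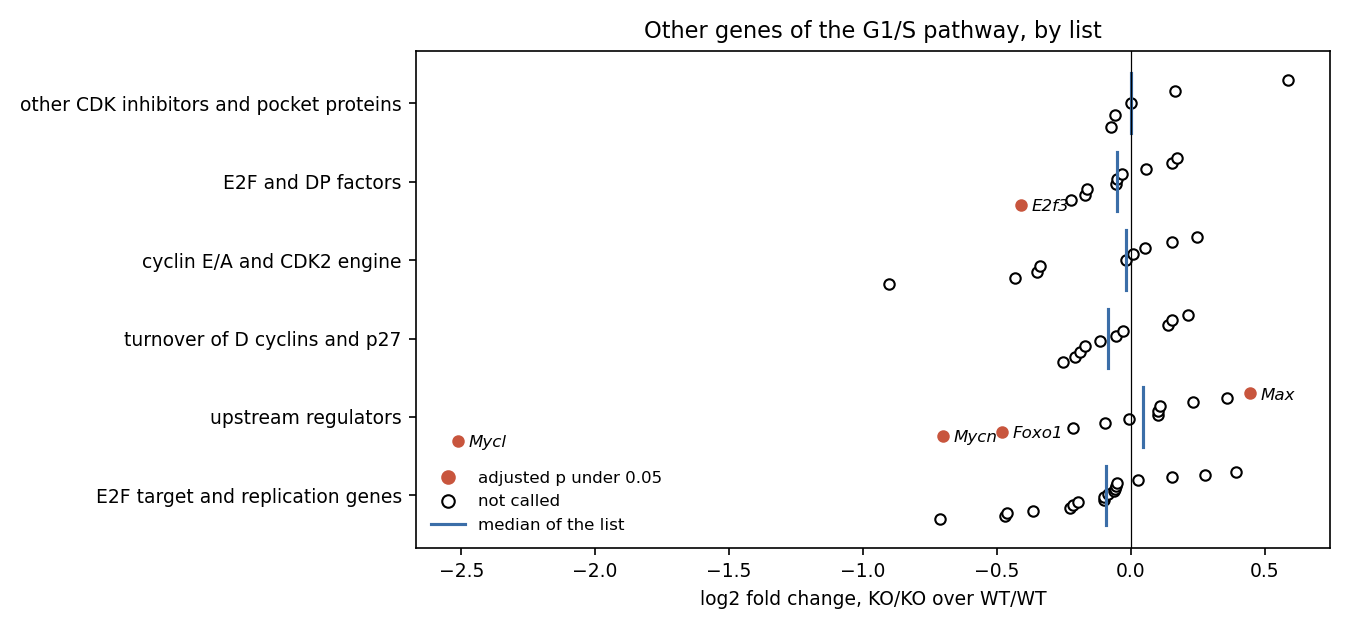
Log2 fold change (KO/KO over WT/WT) of the 64 other G1/S pathway genes by list; filled red points passed the test and carry their names, open points did not, and blue lines are list medians. Mycl at -2.51 lies apart, and the list medians lie between -0.09 and 0.05.

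Genes with the most similar profile over the 6 libraries were sought among 11665 named genes whose log2 CPM averaged 1 or more. For Cdk6 these were Ankrd40 (Pearson r = 0.998) and Ephb4 (r = 0.998), for Ccnd3 Tprgl (r = 0.998) and Ppm1j (r = 0.997), and for Cdk4 Eif3l (r = 0.999) and Ndufv2 (r = 0.995). With only 6 libraries in 2 genotypes such values are common: 429 genes had r over 0.95 with Cdk6, 422 with Ccnd3 and 203 with Cdk4. The points share libraries and genotype, so these values describe likeness of pattern over the libraries only, not of level or size of change. Log2 fold changes were -0.46 for Ankrd40, -0.73 for Ephb4, 0.38 for Tprgl and 1.57 for Ppm1j. Eif3l (-0.22, edgeR adjusted p = 0.107) and Ndufv2 (-0.46, edgeR adjusted p = 0.0599) were not called.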

How the data were processed

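Each of the 6 libraries has a deposited file of raw counts, with 1 row for each gene symbol or repeat family. The submitters' processing notes name STAR 2.7.0a, featureCounts 1.5.1 and the build mm10. Libraries came from a stranded total RNA kit, per the labels' protocols. The sources used here do not give the annotation release, the strand setting or the treatment of multiply mapped reads.

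Repeat families (1205 of 55292 rows, 14.1% to 15.5% of counts) were left out. All genes were fitted together with edgeR 4.0.16 in R 4.3.3 (TMM, filterByExpr, quasi-likelihood F test, genotype only, two-sided), with Benjamini-Hochberg adjustment over 21314 genes and a threshold of 0.05. The SE is the log2 fold change divided by the square root of F, and 95% intervals use the fit's total degrees of freedom. Alternatives were RLE and upper quartile factors, other filters, DESeq2 1.42.0, limma-voom (limma 3.58.1), repeat rows included, a replicate block and each library left out. Exon lengths, overlaps and coordinates came from GENCODE M21 (GRCm38, the assembly of mm10).

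The 10 genes and all lists were chosen with earlier results of these data known. The text names all 10 genes, called genes of each pathway list (at most 4, or the smallest p where none was called), and for each called gene of the 10 the 2 most correlated genes; marker and overlapping genes stand only beside a result.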

Additional observations from a re-analysis of the deposited data

How the results depend on the processing

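The rise of Ccnd3 and the fall of Cdk6 kept direction and call in all 14 alternatives, and the 7 genes without a call gained none. No scaling alternative changed a call or sign of the 10 genes. With a replicate block 1 gene was lower, because Cdk4 (log2 fold change -0.54) had an adjusted p of 0.0504; E2f3 also lost its call (adjusted p = 0.0543). Deviations of same-numbered samples from their genotype means correlated at -0.19, 0.06 and 0.10, and those of differently numbered samples at -0.35 to 0.34. With 3 samples per genotype these values cannot show whether same-numbered samples were paired. With 1 library left out, the genes lower in the set numbered 1 to 2, those higher among all genes 814 to 1985, those lower 560 to 1380, and the other pathway genes 0 to 3 higher and 1 to 6 lower. The log2 fold change of Ccnd1, near 0, ranged from -0.088 to 0.14, that of Cdkn2c from -0.076 to 0.64 and that of Cdk4 from -0.62 to -0.35. With no filter on low counts 3 pathway genes were higher and 11 lower. Shares by raw counts instead of per kilobase were 76.9% (WT/WT) and 73.1% (KO/KO) for Ccnd2, 7.09% in WT/WT for Ccnd3, 23.7% and 28.8% for Cdkn1b, 58.1% and 50.5% for Cdkn2a, and, in a comparison added after the data were seen, 37.9% and 22.4% for Cdk6. Cdkn1a, Cdkn2c and Cdkn2d rest on 50 to 361 counts per library. The cause of these shifts was not tested.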
